A study of Mus musculus with 8 samples.

Results

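The genes that make and insert selenocysteine, but hold none themselves, were followed in ribosome footprints of mouse liver. They were taken by symbol, and 5 of the 6 genes (Secisbp2, Sepsecs, Eefsec, Scly and Sephs1) had a line among the 7500 genes of the deposited table. Pstk had no line and is described by its sequence alone. The livers came from wild-type male FVB/N mice that were kept for 6 weeks, from 3 weeks of age, on a torula yeast diet low in selenium. The 0 Se group (2 mice, 4 libraries) had no selenium added, and the 0.1 Se group (2 mice, 4 libraries) had 0.1 ppm selenium added to the same diet as sodium selenite, so that each mouse gave 2 libraries. The study asked how dietary selenium changes gene expression in liver. The deposited table gives each gene 1 average level over the libraries of both diets, and beside it the authors' own comparison of the diets, which was not used here. The data below are therefore levels of genes in liver across both diets. They hold no value for a single mouse or diet, and no test of the diet was made.

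Selenocysteine has no free pool that is loaded onto a tRNA. It is built on its own tRNA, which is first charged with serine by the seryl-tRNA synthetase (Sars). The kinase Pstk phosphorylates that serine, and the synthase Sepsecs exchanges the phosphate for selenium, using selenophosphate as the donor. Selenophosphate is made by Sephs2, which is itself a selenoprotein. The elongation factor Eefsec carries the finished tRNA to the ribosome, where Secisbp2, bound to a stem-loop in selenoprotein mRNAs, lets a UGA codon be read as selenocysteine in place of a stop. Scly works in the other direction and frees selenium from selenocysteine for reuse. Liver is the organ that turns dietary selenium into the selenoprotein Sepp1, which carries it to other tissues.

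Sephs1 is the near relative of Sephs2 that lacks selenocysteine. It was taken with the machinery by symbol, not by a step shown here. The coding sequences of the pair encode proteins that were identical at 291 of 391 aligned residues (74.4%). The stretch around the selenocysteine codon of Sephs2 and the stretch of Sephs1 that aligns with it are printed to show this difference, as DNA from 5′ to 3′ on the coding strand, with 10 codons on either side of the codon in capitals. The Sephs2 stretch lies at chr7:134417215-134417277 (mm9, minus strand, the only coding exon), and the Sephs1 stretch at chr2:4805513-4805575 (mm9, plus strand, coding exon 1).
Sephs2: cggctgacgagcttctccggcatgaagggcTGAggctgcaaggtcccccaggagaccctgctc
Sephs1: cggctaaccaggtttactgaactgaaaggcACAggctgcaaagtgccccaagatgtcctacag
The capitals mark codon 63 of Sephs2, a UGA in the mRNA, and codon 29 of Sephs1, which is ACA. Of the 20 flanking codons, 13 encode the same residue in both genes. Sephs1 therefore has no in-frame stop to read through at this place.

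None of the 6 machinery genes had an in-frame UGA ahead of its stop codon, which their choice as genes without selenocysteine fixed in advance. In all, 7113 listed genes had a complete coding sequence in GENCODE vM1, and 11 of them had such a codon. All 11 were in the list of selenoprotein genes, Sephs2 and Sepp1 among them. That list has 14 genes with a line, and Txnrd1, Sels and Sepx1 were not among the 11. The search therefore did not find every selenoprotein gene, and its result holds for the coding sequences used. A coding sequence holds such a codon only where the annotation reads through it. The search thus restates the annotation and is no independent result. The last 30 bases of each machinery gene's coding sequence are printed to show which codon ends it, with the stop codon in capitals.
Sepsecs: ggggatgtgggccagggccctgctctaTGA
Eefsec: acccagaagcgcatggtacagactcccTGA
Secisbp2: acctctcagatgatgaacttgaatttaTAA
Pstk: gtgcagaagtatttttcaaagcaacatTAA
Sephs1: gtgaaccccacacctggtgccacctccTAA
Scly: gccgtggcccaactggaagggcggctcTAG
Sepsecs and Eefsec end with UGA, the triplet that their own products help to recode. UAA ends the other genes but Scly, which ends with UAG. UGA was also the most frequent stop among listed genes, at the end of 3657 of 7236 coding sequences (50.5%), against 26.1% for UAA and 23.4% for UAG. These stretches lie at chr5:53035043-53035072 (minus strand) for Sepsecs, chr6:88208195-88208224 (minus) for Eefsec and chr13:51778721-51778750 (plus) for Secisbp2. They lie at chr7:138531302-138531331 (plus) for Pstk, chr2:4827812-4827841 (plus) for Sephs1 and chr1:93216778-93216807 (plus) for Scly, all in mm9.

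The genes are spread over 6 chromosomes. In mm9, Scly spans chromosome 1 from 93194915 to 93217652 and has 12 exons. Sephs1 spans chromosome 2 from 4802610 to 4831603, with 8 of its 9 exons coding. Sepsecs spans chromosome 5 from 53031326 to 53060968, with 11 exons, and Eefsec chromosome 6 from 88207328 to 88396533, with 7 exons. Pstk spans chromosome 7 from 138514655 to 138531353, with 6 exons, and Secisbp2 chromosome 13 from 51747066 to 51779413, with 17 exons. Eefsec was by far the longest of these genes at 189 kb, against 16.7 to 32.3 kb for the others, although its coding sequence of 1752 bases is of ordinary size. Sephs2, the relative of Sephs1, has a single exon on chromosome 7. Its model in the annotation used holds only the coding sequence of 1359 bases, so its gene length cannot be compared with those above.

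Coding sequences ran from 1080 bases in Pstk to 2577 bases in Secisbp2, which is longer than 80.6% of the listed genes'. Their GC content ran from 48.2% in Pstk to 57.4% in Scly, around the median of 52.6% for listed genes. The study counted only footprints that aligned to a single gene with up to 2 mismatches, so a near-identical copy would have removed reads. Of the 30-base windows in the counted part of each machinery gene (1096 in Sephs1 to 2494 in Secisbp2 among genes with a line), 0 occurred in the coding sequence of another gene, also when 2 mismatches were allowed. This includes Sephs1 against Sephs2.

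Footprint levels were read as log2 CPM, where CPM is a gene's count scaled to the size of its library, and set per kilobase of counted coding sequence when genes were compared, because a longer message holds more ribosomes at the same density. The median listed gene had a log2 CPM of 3.95 and a log2 level per kilobase of 3.50, or 11.3 CPM per kilobase. The depth of the libraries is unknown and no spread between mice was at hand, so the order of 2 genes below is a description and neighbours in it could not be tested. A footprint level reflects both the amount of a message and the ribosomes on it, and is not a measure of protein. It is that of whole liver, where fewer cells of a type and fewer footprints per cell cannot be told apart. All 6 hepatocyte markers had a line, with a median log2 level per kilobase of 14.11. Kupffer cell markers (4 of 5 with a line), sinusoidal endothelial markers (4 of 4) and stellate cell markers (4 of 4) had medians of 4.77, 3.83 and 2.92. Bile duct markers (3 of 4) had a median of 0.79, the 1 of 4 lymphocyte markers with a line (Ptprc) had 1.63, and 0 of 2 blood markers had a line. Which cells the machinery footprints came from was not tested.

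Scly, the lyase that recovers selenium from selenocysteine, had the highest level of the 5 genes. Its log2 CPM was 6.09, or 68.2 CPM, over 1239 counted bases. That gave 55.1 CPM per kilobase, a log2 level per kilobase of 5.78, which was 4.88 times the median listed gene and above 80.5% of listed genes. Scly was the only one of the 5 genes above the 75th percentile of the whole table. Among the 4998 listed genes with a log2 CPM from 3 upwards it lay above 70.7%.

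Sepsecs, which puts selenium onto the tRNA, had a log2 CPM of 5.19 (36.5 CPM) over 1455 counted bases. Its log2 level per kilobase of 4.65, or 25.1 CPM per kilobase, lay above 68.0% of listed genes. Eefsec, which takes the finished tRNA to the ribosome, was close to it with a log2 CPM of 5.14 (35.2 CPM) over 1692 counted bases. Its log2 level per kilobase was 4.38, or 20.8 CPM per kilobase, above 64.3% of listed genes. The pair differed by 0.27 on the log2 scale, the smallest gap in the order, with Sepsecs at 1.21 times Eefsec per kilobase. Whether the enzyme that completes the amino acid and the factor that delivers it differ in level could not be tested.

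Sephs1 had a log2 CPM of 4.02 (16.3 CPM) over 1119 counted bases, the shortest of the 5. Its log2 level per kilobase of 3.86, or 14.5 CPM per kilobase, was 1.29 times the median listed gene. Eefsec exceeded it by 0.52 on the log2 scale, and it lay above 56.3% of listed genes.

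Secisbp2, the protein that marks selenoprotein messages for recoding, had the lowest level. Its log2 CPM was 3.59 (12.0 CPM), and these footprints were spread over 2517 counted bases, the longest of the 5. That left 4.79 CPM per kilobase, a log2 level per kilobase of 2.26, which was 0.424 times the median listed gene and above only 29.6% of listed genes. By CPM, without division by length, Secisbp2 lay above 43.4% of listed genes. On both scales it was the one gene of the 5 below the median of all listed genes. Against the 4998 genes with a log2 CPM from 3 upwards, Eefsec (above 47.3%), Sephs1 (above 36.4%) and Secisbp2 (above 8.3%) all lay below the median, and Sepsecs (above 52.4%) just over it. The gap from Sephs1 to Secisbp2, 1.60 on the log2 scale or 3.04-fold, was the widest between neighbours. Scly stood 11.5-fold above Secisbp2 per kilobase and 5.67-fold above it in CPM. The order of the 5 genes was the same on both scales.

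**Figure D1:**
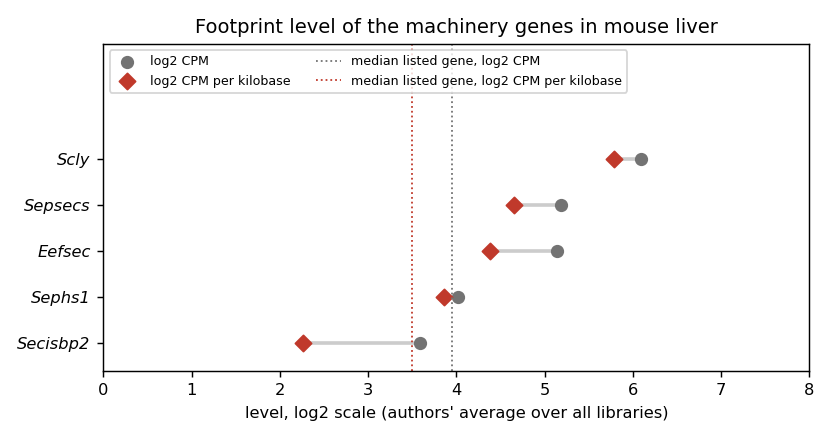
Level of the 5 machinery genes on the log2 scale, as log2 CPM (grey circles) and as log2 CPM per kilobase of counted coding sequence (red diamonds), with the median of all listed genes on each scale as a dotted line of the same colour. Each point is the authors' average over all libraries, so no error bar can be drawn. Scly is highest at 6.09 and 5.78, and Secisbp2 is lowest at 3.59 and 2.26, the only gene left of the dotted line of the same colour on each scale.

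Together the 5 genes held 168 CPM, or 0.0196% of the summed CPM of the listed genes. Per kilobase, 3814 of the 7500 genes (50.9%) lay between Secisbp2 and Scly. This share was not compared with that of 5 genes taken at random.

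**Figure D2:**
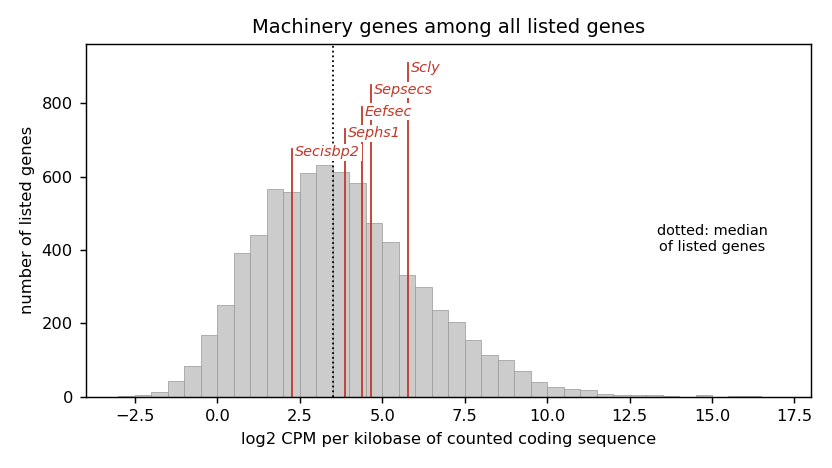
Number of listed genes (vertical axis) by log2 CPM per kilobase of counted coding sequence (horizontal axis, equal bins), with the 5 machinery genes as red lines and the median of 3.50 as a dotted line. Sephs1, Eefsec and Sepsecs lie just right of the median, between 3.86 and 4.65, with Secisbp2 on its left at 2.26 and Scly further right at 5.78.

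Sephs1 and its relative Sephs2 stood far apart in level, and no part of Sephs1 in making selenophosphate was shown here. Sephs2, which makes selenophosphate, had a log2 CPM of 7.98 and a log2 level per kilobase of 7.60, above 92.7% of listed genes. That is 194 CPM per kilobase against 14.5 for Sephs1, or 13.3-fold. Sephs2 also stood 3.52-fold above Scly, 7.73-fold above Sepsecs, 9.32-fold above Eefsec and 40.5-fold above Secisbp2. The UGA of Sephs2 comes after 62 codons, 13.7% of its coding sequence, and the rest of the message can be translated only past the codon that needs the machinery. The level of Sephs2 pools footprints before and after this codon over both diets. Footprints past the UGA of Sephs2 were not counted apart here, although the study did count them apart. Sephs1 has no such codon.

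Other genes that work on the same tRNA or mRNA were compared as a list of 11, of which 7 had a line, Sephs2 included. Their median log2 level per kilobase was 5.28, and 5 of the 7 lay above the median listed gene. Sars, which charges the tRNA with serine but also serves all serine codons, had 5.76, which is 2.15-fold above Sepsecs and level with Scly at 0.981 times its value. Enzymes that modify bases of the selenocysteine tRNA were low. Trit1, which adds an isopentenyl group near the anticodon, had 2.99, and Alkbh8, which methylates the wobble uridine, had 1.78, so that Eefsec stood 2.62-fold and 6.07-fold above them. Alkbh8 was the only gene of this list below Secisbp2. Ncl and Eif4a3, RNA-binding proteins that also bind some of the stem-loops, had 6.80 and 5.28, and both have many other messages as targets. Xpo1, a nuclear export receptor, had 3.90. Secisbp2l, the relative of Secisbp2, and Trnau1ap, Rpl30 and Elavl1 had no line.

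Eefsec and Secisbp2 act at the ribosome beside the factors of ordinary translation, which were compared as a list of 8, with a line for 6. All 6 lay above the median listed gene, with log2 levels per kilobase from 5.71 to 8.55. Eef2, which moves the ribosome along by a codon, had 8.55 and stood 18.1-fold above Eefsec per kilobase. Subunits of the factor that recycles the ordinary tRNA carrier, Eef1b2, Eef1d and Eef1g, had 6.84, 6.02 and 5.82. At a UGA the release factors Etf1 and Gspt1 compete with Eefsec. Etf1 had 5.71, or 52.3 CPM per kilobase, and Gspt1 had 5.83, or 56.8 CPM per kilobase. They stood 2.52-fold and 2.73-fold above Eefsec, and 10.9-fold and 11.9-fold above Secisbp2. Eef1a1, the ordinary counterpart of Eefsec, and Abce1 had no line.

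Genes for the supply and disposal of selenium surround Scly. Of 11 genes 6 had a line, all 6 above the median listed gene, with a median log2 level per kilobase of 6.23. Cth, which cleaves cystathionine and also acts on its selenium analogue, had 6.75, 1.95-fold above Scly. Gsr and Glrx, which maintain the glutathione system, had 5.71 and 7.25. Inmt, a methyltransferase that can methylate selenium compounds, had 9.57. The selenium-binding proteins Selenbp1 and Selenbp2 had 5.31 and 4.07. Nfs1, Cbs, Tpmt, Lrp8 and Lrp2 had no line.

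The selenoproteins are what the machinery makes, and of 24 genes 14 had a line. Their median log2 level per kilobase was 5.85 against 4.38 for the machinery, or 2.77-fold higher (machinery minus selenoproteins -1.47). In all they held 13.1 times the machinery's CPM. Above every machinery gene lay 7 of them, from Gpx1 at 10.15, Sepx1 (listed as Msrb1) at 9.92 and Sepp1 at 9.48 down to Selk at 5.96. Another 6 lay within the range of the machinery, and Txnrd3, at 1.84, lay below Secisbp2. Gpx1, the glutathione peroxidase of the cytosol, stood 238-fold above Secisbp2 per kilobase, and Sepp1 149-fold. Selenoprotein levels pool footprints before and after the UGA codon, so they do not give full-length translation. The machinery and selenoprotein averages also include both diets, so their comparison may differ within a diet. That was not examined here, as the authors' comparison of the diets was not used. The difference was -1.09 without Sepp1 and Gpx1, and -0.44 when levels were not divided by length.

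**Figure D3:**
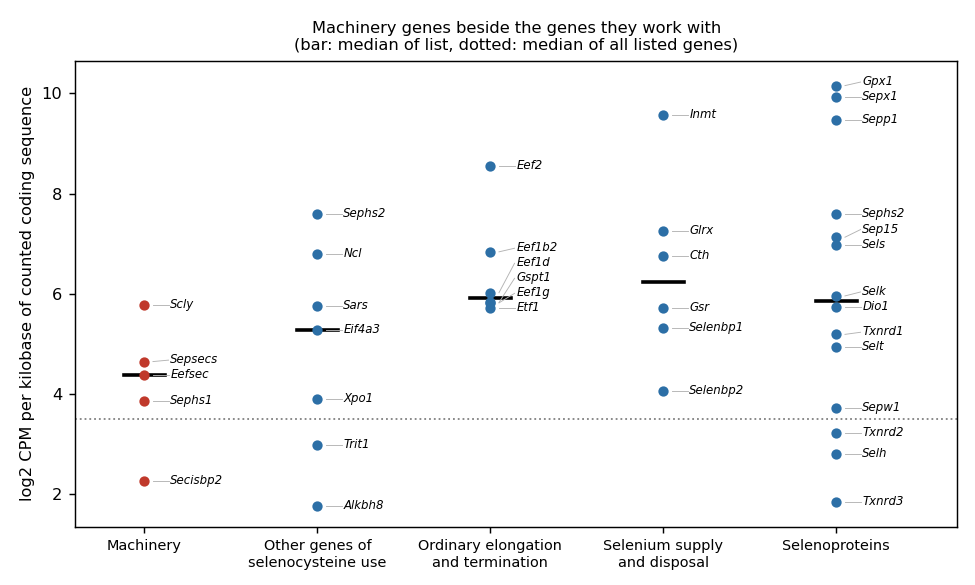
Log2 CPM per kilobase of counted coding sequence (vertical axis) for the 5 machinery genes (red) and for 4 lists of genes they work with (blue), 1 point per gene with a line, a black bar for the median of each list and a dotted line for the median of all listed genes. The machinery's median of 4.38 is the lowest of the 5 medians, below 5.28 for other genes of selenocysteine use and 5.85 for selenoproteins, and Sephs2 appears in both of these lists.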

How the data were processed

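Ribosome footprints of liver were sequenced by the authors from 8 libraries of 4 mice, 2 per diet. Per the study's methods, adapters were trimmed, ribosomal RNA reads were removed with Bowtie, and reads aligning uniquely with up to 2 mismatches to the longest RefSeq isoform (mm9) were counted without the first 15 and last 3 codons. Genes over 1 CPM in at least 3 samples were compared by the authors in edgeR. The sources used here give no tool versions and do not say how the libraries of 1 mouse were joined. The deposited log2 CPM is the authors' average over all libraries. The authors' fold changes, p-values and adjusted p-values of the diets, deposited beside it, were not used. Why a gene has no line is not known here, and a missing line was not read as a low level.

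The log2 level per kilobase is the deposited log2 CPM less log2 of the deposited length in kilobases. That length was 60 bases, or 20 codons, below a GENCODE vM1 coding sequence in 97.7% of 7260 matched genes and in all 5 members. The methods name 18 left-out codons, so the length is taken as close to the counted stretch. The log2 CPM of low genes is raised slightly by the prior count edgeR adds, per the authors' tool. Symbols were matched through RefSeq synonyms (Selt is listed as 2810407C02Rik, Sels as Vimp and Selh as 2700094K13Rik). Sequences are from GENCODE vM1 (NCBIM37, the mm9 assembly) and were checked against the genome. Windows of 30 bases were searched on the coding strand of the longest coding sequence of each gene. Proteins of Sephs1 and Sephs2 were aligned with BLOSUM62 in Biopython 1.88. Scripts ran in Python 3.11.15 and were tested on simulated data. The members and lists were chosen with earlier results of these data known. Every member is named, and any gene of the lists could be named. No per-library value was used, so depth, counting error and spread between mice are unknown, and no test was made.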

Additional observations from a re-analysis of the deposited data

How the results depend on the processing

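Dividing by the counted length plus the 18 codons left out of the alignment gave a median log2 level per kilobase of 4.33 for the 5 machinery genes in place of 4.38, and the full GENCODE coding length, chosen after seeing the data because no table of proteins was used here, also gave 4.33. No gene moved by more than 0.08, and the order of the 5 genes was the same under both lengths and without division by length. The median share of listed genes below the machinery genes was 64.3%. It was 47.3% among the 4998 genes that reached a log2 CPM of 3, where Scly fell from 80.5% to 70.7%, Sephs1 from 56.3% to 36.4% and Secisbp2 from 29.6% to 8.3%, since that filter removes low genes from the reference alone. The median share was 64.2% among the 7469 genes matched to RefSeq, and 71.7% when levels were not divided by length. In that last setting Secisbp2 rose to 43.4% and Sephs1 fell to 51.3%. The machinery's median less that of the selenoproteins was -1.47 on the log2 scale. It was -1.09 without Sepp1 and Gpx1 (Gpx4 has no line), -0.44 without division by length, and -1.36 without Sephs2, a setting chosen after seeing the data.

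Alternatives that need counts per library (another count test or normalization, a count filter, each mouse left out in turn) were not run, and neither was the planned length from RefSeq proteins. No paired analysis was possible because no mouse number occurs in both diets and no value per mouse was used. The unknown depth and the missing spread between mice limit every value above.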

Other observations

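Each machinery gene had close neighbours in level per kilobase. Just above and below Scly lay Fam210a and Snrpc, at 5.78 each on the log2 scale. Next to Sepsecs lay Fam98a and Pold4, both at 4.65, and next to Eefsec lay Baz1b and Tpm4, both at 4.38. Arsa and Chid1 stood next to Sephs1 at 3.86 each, and Epha2 and Usp1 next to Secisbp2 at 2.26 each. These genes share a level in this table, and nothing is said of shared function.

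The symbol column of the deposited table holds 11 entries that read as calendar dates, none of them a gene described above. Sep15, a selenoprotein, is listed under its own name, with a log2 level per kilobase of 7.13.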
